A study of Mus musculus with 3 samples.

Results

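Dendritic cells (DCs) are the immune cells that take up antigen, load its peptides on MHC molecules and present them to T cells. In the lung they lie in and below the airway lining and in the lung tissue, and after taking up antigen some of them move to the draining lymph nodes. Conventional DCs of type 1 (cDC1) depend on the transcription factors IRF8 and BATF3 and are known for presenting antigen from dead cells on MHC class I. Conventional DCs of type 2 (cDC2) depend on IRF4 and are known for presenting antigen on MHC class II to helper T cells.

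The DCs described here were picked from scRNA-Seq of the whole lungs of 3 C57BL/6 mice, numbers 2, 3 and 4, which were kept in room air (RA) from day of life 1 to 14 and taken at P14. Each mouse gave 1 library of freshly dissociated cells, and the mice carried no transgene or treatment that the labels name. All 3 formed 1 condition, so no conditions were compared, and the mice, not the cells, were the replicates. The libraries held 3034, 3135 and 3475 cells with 23744510, 22476491 and 25192427 UMIs in mice 2, 3 and 4, a UMI being a tag that marks 1 captured transcript.

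Of these, 7642 cells were kept, with 200 genes or more detected and mitochondrial UMIs of 20% or less, and 116 of the 7642 were taken as DCs: 34 in mouse 2, 45 in mouse 3 and 37 in mouse 4. They were chosen by their own measured UMIs. A DC had at least 10 UMIs of *H2-Ab1* and *H2-Eb1*, which encode chains of MHC class II. It also had at least 2 UMIs of *Flt3*, a growth factor receptor of DCs, *Cd209a*, a lectin, the chemokine genes *Ccl17* and *Ccl22*, and *Xcr1*, a chemokine receptor of cDC1. It had no UMI of *Cd79a*, a chain of the B cell receptor, or of *Cd3e*, a chain of the T cell receptor complex. At most 4 UMIs of the complement genes *C1qa*, *C1qb* and *C1qc*, which macrophages transcribe, and at most 4 of *Chil3*, a marker of alveolar macrophages, were allowed. DCs made up 1.42% (exact 95% binomial interval 0.989 to 1.99%), 1.73% (1.26 to 2.31%) and 1.39% (0.983 to 1.92%) of the kept cells of mice 2, 3 and 4, intervals that overlap and that cover counting error only. As a share of DCs plus other cells with a UMI of *Ptprc*, which encodes the leukocyte antigen CD45, they were 4.98, 3.17 and 4.15%.

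The gate left a few cells near its edges. The summed *H2-Ab1* and *H2-Eb1* UMIs of a DC ran from 11 over a median of 117 to 525, and 8 DCs had 10 to 19. A further 8 DCs had the smallest allowed sum of 2 UMIs of *Flt3*, *Cd209a*, *Ccl17*, *Ccl22* and *Xcr1*. Just outside, 4 cells failed only with 5 to 9 class II UMIs, 16 failed only with 1 UMI of the other 5 genes, 8 only on *Cd79a* and 2 only on the complement genes. *Flt3* had a UMI in 86 of the 116 DCs, *Cd209a* in 51, *Xcr1* in 44, *Ccl17* in 39 and *Ccl22* in 10.

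Genes outside the gate were checked for the label. *Itgax*, which encodes the DC integrin CD11c, had a UMI in 67.0 ± 4.51% of DCs (SD, n = 3 mice) and in 7.75 ± 0.315% of other immune cells. *Zbtb46*, a transcription factor of conventional DCs, had a UMI in 47.5 ± 2.16% of DCs and in 1.45 ± 0.340% of other immune cells. DCs were deeper, with a median of 9962 UMIs a cell against 3996.5, and after each cell was thinned to 2000 UMIs (7 of 116 DCs and 313 of 2878 other immune cells were shallower and left out) the shares were 28.8 and 4.32% for *Itgax* and 12.99 and 0.450% for *Zbtb46*. *Ptprc* was at 0 in 10 of the 116 DCs.

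Defining markers of lymphocytes and neutrophils were at or near 0 in the DCs, while markers of monocytes and macrophages were not. The gate held *Cd3e* and *Cd79a* at 0, so T and B cell genes that go with them had to be low. Of 15 markers of T and NK cells, 12 were at 0, among them *Cd3d*, *Trac*, *Ncr1* and the gate gene *Cd3e*. The list summed to 67.2 CPM (counts per 1000000 UMIs) against 1054 in other immune cells, with *Klrd1*, a receptor of NK cells, the most abundant. *Pax5*, *Ebf1* and *Fcmr* of the 14 B cell markers were at 0 beside *Cd79a*, and that list summed to 188 against 17546 CPM, with *Ighm*, the IgM heavy chain, the most abundant. The 15 monocyte markers summed to 2912 CPM in DCs against 2979 in other immune cells, and to 1996 without 4 mixed droplets described next. All 15 had UMIs in the DCs, with *Lyz2*, a lysozyme gene of myeloid cells, the most abundant. The 15 markers of interstitial macrophages, 3 of them limited by the gate, summed to 398 against 702 CPM, with *Folr2* at 0 and *Cd68* the most abundant. The 16 of alveolar macrophages, with *Chil3* limited by the gate, summed to 594 against 1021 CPM. *Chil3* was the most abundant of them in other immune cells, at 602 CPM. In DCs *Marco*, *Krt79*, *Fabp1* and *Fabp4* were at 0 and *Fabp5* was the most abundant. The part of these cells in the results below was not tested. The 13 neutrophil markers summed to 67.2 against 8448 CPM. *Siglech*, a surface lectin of plasmacytoid DCs, had a UMI in 2.62 ± 0.366% of DCs (thinned 0.371%) and in 0.458 ± 0.163% of other immune cells (thinned 0.270%).

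In 4 of the DC droplets over 5% of UMIs came from epithelial markers. Mouse 3 held a droplet of 35513 UMIs with 18.1% and another of 16645 UMIs with 14.97%, and mouse 4 held droplets of 26103 UMIs with 13.4% and of 143074 UMIs with 10.6%. In the remaining 112 DCs the share did not go over 0.313%. The largest droplet carried 30.2% of all DC UMIs of mouse 4, and it also held transcripts of ECs: summed endothelial markers were 62.6, 45.3 and 978 CPM in the DCs of mice 2, 3 and 4. Without the 4 droplets these sums were 62.6, 41.7 and 151 CPM, so mouse 4 was still the highest. *Sftpc*, the surfactant gene of type II cells, was the most abundant epithelial marker, and the epithelial list summed to 452, 17916 and 39757 CPM. Over all 3 mice that sum was 19906 CPM with the 4 droplets and 457 CPM without them. The rule kept these droplets among the DCs, and results were also computed without them. Other immune cells also held transcripts of such cells, and none of their droplets was left out for it. Their epithelial list summed to 15726, 10116 and 29621 CPM in mice 2, 3 and 4 and to 17377 CPM over all 3. Their stromal and endothelial markers summed to 3584 and 819 CPM over all 3 mice. The part of these transcripts in the genes that were lower in DCs was not tested.

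The DCs were compared with 3 sets of cells per mouse: all other immune cells (649, 1374 and 855 cells, of which 1791 of 2878 carried *Cd79a* and were called B cells), B cells alone, and macrophages with more than 4 complement UMIs (6, 6 and 8 cells). UMIs were summed per mouse and set. The gate itself drew these contrasts, and genes that go with the gate's genes had to differ, so levels and folds are a description and no p-value is given for them. The 3 comparisons share the same DC sums. Counts of genes past the threshold (edgeR's quasi-likelihood test, Benjamini-Hochberg adjusted p under 0.05) are printed with the share of all tested genes that passed in the same comparison, and nothing is read from them.

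Against all other immune cells, of 10790 genes tested, 1527 (14.2%) were higher and 1514 (14%) lower in DCs. Without TMM scaling the split was 1153 higher and 1950 lower, and the median log2 fold change of all genes moved from -0.04 to -0.20. Without the 4 mixed droplets 2028 genes (19.2%) were higher and 2407 (22.8%) lower of 10575. Only the DC sums were changed in that setting, and the other immune cells kept their epithelial, stromal and endothelial transcripts. Without mouse 2 the threshold was passed by 1440 genes, and without mouse 3 by 1066.

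Among 20 DC transcription factors tested, 13 were past the threshold higher and 3 lower, beside 14.2 and 14% of all genes, with a median log2 fold change of 1.38 beside -0.04 over all genes tested. *Batf3*, a partner of IRF8 in cDC1, stood at 165, 193 and 131 CPM in the DCs of mice 2, 3 and 4 and at 5.98, 6.76 and 2.99 CPM in other immune cells, a log2 fold change of 5.09 ± 0.29 (SE, n = 3 mice). *Id2*, a repressor of the E proteins that direct B cell and plasmacytoid fates, was at 858, 756 and 646 against 228, 173 and 185 CPM. The ranges of both genes were apart in every mouse. *Irf8*, which B cells also transcribe, was at 1389, 1016 and 1070.5 CPM in DCs and 340.2, 377 and 295 CPM in B cells. *Spib*, a factor of B cells and plasmacytoid DCs, was at 4.64, 5.91 and 6.33 against 289, 393 and 277 CPM in other immune cells. Low in DCs beside it were *Ikzf1*, *Bcl11a* and *Zeb2*.

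**Figure D1:**
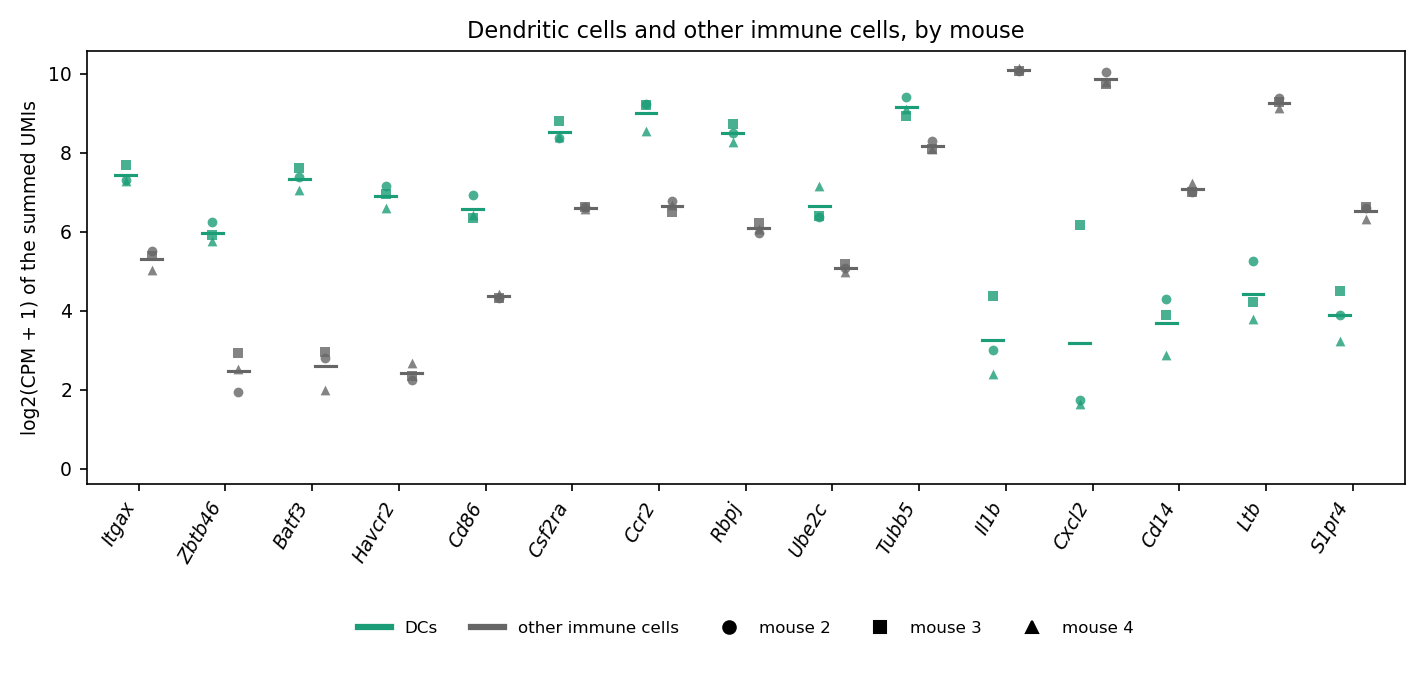
Levels of 15 genes as log2(CPM + 1) in the summed DCs and the summed other immune cells of each mouse (1 point per mouse, bar at the mean of the 3 logs). The 3 DC points lie above the other immune cells from *Itgax* to *Tubb5*, and below them for *Il1b*, *Cxcl2*, *Cd14*, *Ltb* and *S1pr4*.

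Of 19 surface and uptake receptors tested, 13 were higher (beside 14.2% of all genes), with a median log2 fold change of 1.56. *Havcr2*, which encodes TIM-3, a checkpoint receptor, was at 141, 122 and 95.01 CPM in DCs against 3.70, 4.08 and 5.34 CPM, a log2 fold change of 4.92 ± 0.23. *Cd207*, which encodes langerin, a lectin of Langerhans cells and of airway cDC1, was at 67.2, 17.7 and 35.9 CPM in DCs (55 UMIs) and had no UMI in the other immune cells of any mouse. Set against a floor of 3 UMIs over that group, this is an at least 198-fold higher level. The lectin genes *Cd209d* and *Cd209b* lie beside *Cd209a* on chromosome 8 and resemble it in sequence, so reads could be shared among them, and their counts are uncertain to that extent. *Cd209d* was at 181, 181 and 149.9 CPM in DCs and 0, 5.49 and 0.64 CPM in other immune cells. A single DC of mouse 2 held 67 UMIs of *Cd209d*.

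Receptors for growth factors and for migration cues included some with higher and some with lower levels in DCs. *Csf2ra*, a chain of the GM-CSF receptor, was at 332, 447 and 338 against 97.9, 96.9 and 93.7 CPM, a log2 fold change of 2.12 ± 0.15. *Ccr2*, the receptor that monocytes and DC precursors use to leave the marrow, was at 596, 585 and 374 against 108, 89.001 and 101 CPM. Both were higher in the DCs of each mouse, and the ranges did not meet. *Ccr6*, a receptor for CCL20, had no UMI in DCs and stood at 16.8, 19.997 and 22.6 CPM in other immune cells. *S1pr4*, a receptor for sphingosine 1-phosphate, was at 13.9, 21.7 and 8.45 against 95.9, 96.9 and 78.3 CPM. *S1pr1*, the receptor that guides lymphocytes out of tissue, was at 0, 1.97 and 40.1 against 139.8, 176 and 174 CPM, and without the 4 mixed droplets the DC values were 0, 2.19 and 9.85 CPM. It did not pass the threshold without mouse 3. In all, 4 of the 13 migration receptors tested were higher and 6 lower, and 7 of the 14 growth factor receptors were higher and 5 lower, beside 14.2 and 14% of all genes.

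Among cytokine and chemokine genes, a few had far lower levels in DCs and others higher ones. *Il1b*, the gene of interleukin 1 beta, was at 6.96, 19.7 and 4.22 CPM in DCs and 1075, 1066 and 1136 CPM in other immune cells, and *Ltb*, lymphotoxin beta, at 37.1, 17.7 and 12.7 against 659.9, 626 and 562 CPM. The neutrophil chemokine gene *Cxcl2* was at 2.32, 70.9 and 2.11 against 1045, 855 and 882 CPM. Of the DCs of the 3 mice, those of mouse 3 had the most *Cxcl2*, still below the sum of all other immune cells. B cells were at 28.9, 87.9 and 85.7 CPM and macrophages at 604, 165 and 0 CPM, ranges that the DC values overlap. *Cxcl16*, the ligand of CXCR6, ran the other way, at 172, 171 and 129 against 10.2, 13.2 and 25.2 CPM, although macrophages held more of it than DCs, at 604, 609 and 1242 CPM. Of 14 cytokine genes tested 2 were higher and 5 lower, and of 10 chemokine genes 2 were higher and 4 lower, beside 14.2 and 14% of all genes. Without the mixed droplets 4 cytokine genes were higher and 5 lower, and 3 chemokine genes were higher and 5 lower, beside 19.2 and 22.8%. Against B cells alone, 4 of 9 chemokine genes tested were higher, with a median log2 fold change of 3.04, and 1 of 8 cytokine genes was higher and 5 lower, beside 21.3% (higher) and 19.1% (lower) of all genes in that comparison. Against macrophages, 2 of 8 chemokine genes tested were lower (*Ccl12* and *Cxcl16*), beside 6.77% of all genes, with a median log2 fold change of -1.24.

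*Ccl17* and *Ccl22*, ligands of CCR4 and both part of the gate, varied widely between mice. *Ccl17* was at 1322, 1447 and 109.8 CPM in the DCs of mice 2, 3 and 4, and *Ccl22* at 767, 809 and 86.6 CPM. Mouse 4 was the lowest for both. All but 28 of the *Ccl22* UMIs lay in 5 cells, and a single one of these held 332, so the *Ccl22* level of a mouse rests on 1 or 2 cells. For mouse 4, without the mixed droplets, the values were 151 and 135 CPM.

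The Notch pathway, in which ligands such as DLL4 on one cell activate receptors on the next, gives cDC2 of some tissues part of their identity through NOTCH2 and RBPJ. *Rbpj*, the DNA-binding partner of the cleaved receptors, was at 357, 421 and 306 CPM in DCs against 61.5, 73.9 and 65.3 CPM in other immune cells, a log2 fold change of 2.60 ± 0.15. *Notch2* was at 102, 72.8 and 88.7 against 68.3, 80.1 and 72.6 CPM, a log2 fold change of 0.41 ± 0.16, with ranges that overlap. *Notch4* was at 20.9, 17.7 and 71.8 against 4.55, 8.87 and 9.82 CPM, and the cells of the Xcr1/Clec9a-type described below carried most of it, at 40.9, 41.4 and 147 CPM. Summed endothelial markers of that type were also highest in mouse 4, at 40.9, 41.4 and 214.7 CPM. Without the mixed droplets they were at 40.9, 39.7 and 232 CPM. The part of endothelial RNA in the *Notch4* level was not tested. Of the target genes, *Hes1* was at 9.27, 7.87 and 42.2 CPM in DCs and 37.6, 35.3 and 45.5 CPM in other immune cells, and without the mixed droplets at 9.27, 8.78 and 9.85 CPM in DCs. *Dll4* itself had UMIs in the DCs of mouse 4 alone, at 33.8 CPM, and none was left without the mixed droplets. Of 16 Notch genes tested, 2 were higher (*Rbpj* and *Notch4*), beside 14.2% of all genes, and 1 lower (*Dtx1*), beside 14%. Without the mixed droplets 3 were higher and 6 lower of 14 tested, beside 19.2 and 22.8% of all genes, and *Notch2* was among the higher ones. The other immune cells kept their endothelial and stromal transcripts there, and the part of these in the lower Notch genes was not tested. *Notch4* did not pass without mouse 2, without mouse 3 or at 500 genes and 10% mitochondrial UMIs.

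Genes of MHC class II presentation included higher and lower ones. *H2-Aa*, the alpha chain of I-A, was at 6515, 5589 and 4979 CPM in DCs, 1934, 1747 and 1527 CPM in B cells and 2115, 2632 and 754 CPM in macrophages, in mice 2, 3 and 4. *Cd74*, the invariant chain, was at 19585, 16093 and 13608 CPM in DCs and 9271, 8370.3 and 7141 CPM in B cells. *Ciita*, the coactivator that switches on class II genes, was at 104, 159 and 99.2 against 77.6, 65.8 and 53.4 CPM in B cells. The DCs were above both other sets for *H2-Aa* in each mouse. *H2-DMb1*, a chain of the peptide loader H2-DM, was at 816, 629.9 and 420.2 CPM in DCs and 119, 128 and 106 CPM in B cells. *H2-Ob*, a chain of its inhibitor H2-O, ran the other way at 85.8, 88.6 and 59.1 against 477, 477 and 405 CPM, as did *H2-DMb2*, the other beta chain gene of H2-DM, at 123, 55.1 and 54.9 against 262, 255 and 232 CPM. Of 16 class II genes tested against B cells 6 were higher and 6 lower, beside 21.3% (higher) and 19.1% (lower) of all 9137 genes (3691 in both directions, 2219 without mouse 2 and 1772 without mouse 3). Over all genes, 1948 were higher and 1743 lower than in B cells, and without TMM scaling 1644 were higher and 2091 lower. Without mouse 3, *Cd74*, *Ciita* and *H2-DMb2* did not pass against B cells. Against all other immune cells the same list had 7 higher and 2 lower, beside 14.2 and 14% of all genes.

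The promoters of *H2-Eb1*, a gate gene, and of *H2-Aa*, which was not part of the gate, are shown because class II promoters share a short set of boxes. Each window is the 250 bases before the gene's start in RefSeq on GRCm38.p6, written 5′ to 3′ on the gene's strand. Capitals mark CTGATTGG, an inverted CCAAT box found by search on both strands. *H2-Aa* lies on the minus strand (chr17:34287824-34288073), with the box 51 to 44 bases before the start, and *H2-Eb1* on the plus strand (chr17:34305617-34305866), with the box 62 to 55 bases before it. Of the 18 class II genes of the list 13 had a window, and 4 of the 13 held these letters (*H2-Aa*, *H2-Eb1*, *H2-Eb2* and *H2-Oa*), beside 3.83% of all 32851 windows of this length. A match is a description of the sequence, not of binding.
H2-Aa: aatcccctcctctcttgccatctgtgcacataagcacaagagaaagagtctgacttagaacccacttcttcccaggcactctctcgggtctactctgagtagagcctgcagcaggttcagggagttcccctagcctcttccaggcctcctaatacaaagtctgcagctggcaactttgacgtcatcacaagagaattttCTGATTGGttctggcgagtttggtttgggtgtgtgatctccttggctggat
H2-Eb1: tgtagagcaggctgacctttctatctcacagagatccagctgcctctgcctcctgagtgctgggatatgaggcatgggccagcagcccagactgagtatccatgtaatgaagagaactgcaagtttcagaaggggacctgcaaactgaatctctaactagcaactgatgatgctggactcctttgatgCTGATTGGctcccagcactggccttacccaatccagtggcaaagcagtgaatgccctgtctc

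Against the 20 complement-rich macrophages, DCs had little of the macrophage genes. Of 4074 genes tested, 249 (6.11%) were higher and 276 (6.77%) lower in DCs, and without TMM scaling 143 were higher and 341 lower. In both directions 525 genes passed, and separate fits called 133 without mouse 2, 334 without mouse 3 and 180 without mouse 4. All 9 tested markers of interstitial macrophages were lower, beside 6.77% of all genes. *Csf1r*, the receptor for the macrophage growth factor, was at 51.01, 76.8 and 59.1 CPM in DCs and 1058, 1201 and 1772 CPM in macrophages. *Mrc1*, the mannose receptor CD206, was at 32.5, 13.8 and 25.3 against 906, 789.6 and 1874 CPM. *Stab1*, a scavenger receptor, had no UMI in the DCs and 1511, 1004 and 1915 CPM in macrophages, at least 675-fold lower when 3 UMIs are taken as the floor of all DCs. *Apoe*, a lipid carrier, was at 9.27, 68.9 and 182 CPM in DCs against 18460.0, 9788 and 32487 CPM. Mouse 4 held the most *Apoe* among the DCs, and without the mixed droplets the DC values were 9.27, 32.9 and 9.85 CPM. Conversely *Id2* was at 858, 756 and 646 CPM in DCs against 121, 148 and 40.7 CPM in macrophages, and *Plac8*, a gene of DCs and monocytes, at 498, 335 and 112 CPM against no UMI in macrophages. With 6 to 8 macrophages a mouse, 142984 UMIs in all, a gene with few transcripts could go unseen in them.

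A larger share of DCs than of other immune cells carried transcripts of dividing cells. *Mki67* or *Top2a*, which encode proteins of dividing cells, had a UMI in 8 of 34, 8 of 45 and 11 of 37 DCs of mice 2, 3 and 4, and in 52 of 649, 113 of 1374 and 88 of 855 other immune cells. The shares were 23.7 ± 5.98% and 8.84 ± 1.26% (SD, n = 3 mice), and the DCs were higher in every mouse. After thinning to 2000 UMIs they were 13.5 ± 4.39% and 4.83 ± 0.498%, and DCs were again higher in each mouse. B cells were at 6.21 ± 1.42% (thinned 3.18%). Of 20 cell cycle genes tested 11 were higher in DCs (beside 14.2% of all genes), with a median log2 fold change of 0.95 beside -0.04 over all genes tested. *Ube2c*, of the machinery that ends mitosis, was at 81.1, 82.7 and 141 CPM in DCs against 32.7, 35.3 and 30.3 CPM, and the tubulin gene *Tubb5* at 679, 482 and 551 against 313, 271 and 273 CPM. *Mki67*, which is among the 11, was closer, at 134, 96.5 and 167 against 101, 86.2 and 93.3 CPM. It did not pass without TMM scaling, without the filter on low counts, without any 1 of the mice or at 500 genes and 10% mitochondrial UMIs, where the log2 fold change was 0.029.

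The DCs fell into 2 large subsets and a small further one. A DC was given the type whose marker sum was largest and at least 2 UMIs: *Xcr1* and *Clec9a*, a receptor for dead cells, for the first, *Cd209a* and the lectin genes *Mgl2* and *Clec10a* for the second, and *Ccr7*, the receptor that leads DCs to lymph nodes, and *Fscn1*, an actin bundler, for the small one. This gave 52 cells of Xcr1/Clec9a-type (16, 19 and 17 in mice 2, 3 and 4), 53 of Cd209a/Mgl2-type (14, 22 and 17), 5 of Ccr7/Fscn1-type (1, 2 and 2) and 6 untyped cells (3, 2 and 1). The first type was 47.1, 42.2 and 45.9% of DCs and the second 41.2, 48.9 and 45.9%. Of 110 typed cells 90 had no UMI in either of the other sums, 3 were typed on 2 UMIs, and 1 led by a single UMI. The 3 untyped cells of mouse 2 were small, with a median of 1220 UMIs, and had no *Ptprc* UMI.

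**Figure D2:**
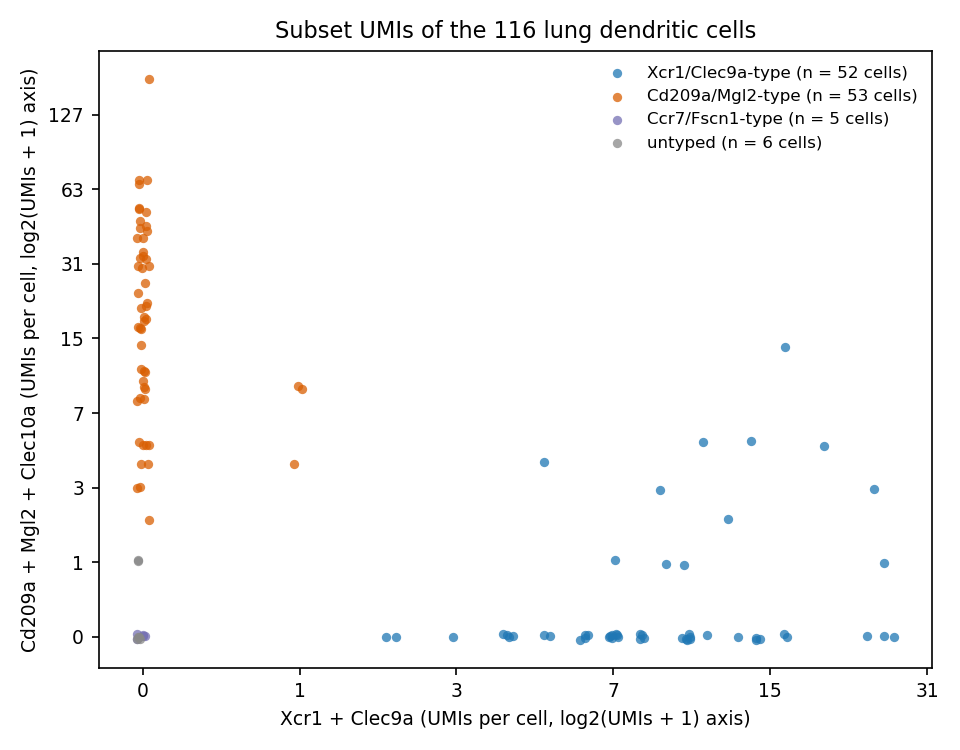
Each point is 1 of the 116 DCs, placed by its UMIs of *Xcr1* and *Clec9a* (x axis) and of *Cd209a*, *Mgl2* and *Clec10a* (y axis), and coloured by subset, with a small jitter against overlap. The 52 and 53 cells of the large subsets lie mostly along the 2 axes, with some cells of the first type between them.

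The first subset carried genes known for cDC1 and the second many of those known for cDC2. Of 14 cDC2 markers 12 had a UMI in the second, with *Clec4a4* and *Dtx1* at 0, and *Cd7* had one in 9 of its 53 cells. The 7 genes that set the types were left out of the comparison of the 2 types. Of 3206 other genes tested 140 (4.37%) were higher and 142 (4.43%) lower in the Xcr1/Clec9a-type. In both directions 282 genes passed, and separate fits called 72 without mouse 2 and 122 without mouse 3. Without the mixed droplets 438 were called (211 higher, 7.39%, and 227 lower, 7.95%, of 2854). Since the types were set on UMIs of the same cells, genes that go with *Xcr1* or *Cd209a* had to differ, and the values of lineage genes are given as a description. The largest mixed droplet held 52.3% of the Cd209a/Mgl2-type UMIs of mouse 4, so the mouse 4 values of that type are given again without it for some genes below. *Irf8* was at 2687, 2565 and 2814 CPM in the Xcr1/Clec9a-type of mice 2, 3 and 4 and at 10.7, 81.2 and 29.3 CPM in the Cd209a/Mgl2-type, a log2 fold change of 6.03 ± 0.44 (SE, n = 3 mice). *Irf4* was at 0, 5.18 and 0 against 155, 129.8 and 109.7 CPM. All 52 cells of the first type had *Irf8* (median 27 UMIs) and 7 of 53 of the second. A single cell of mouse 3, typed on 4 UMIs of *Cd209a* and with 1 of *Clec9a*, held 18 *Irf8* UMIs. It carried most of the mouse 3 value of the second type. *Irf8* lies at chr8:120736358-120756694 (plus strand) and *Irf4* at chr13:30749226-30766976 (plus strand) on GRCm38.

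Receptors of the known cDC1 and cDC2 lists went with the 2 types. *Itgae*, the integrin CD103, was at 322, 295 and 418 against 5.35, 8.12 and 0 CPM, and *Tlr3*, the sensor of double-stranded RNA, at 145, 155 and 186 against 5.35, 16.2 and 3.66 CPM. *Sirpa*, an inhibitory receptor, was at 0, 5.18 and 0 against 305, 337 and 121 CPM, and *Itgam*, the integrin CD11b, at 4.54, 0 and 0 against 139, 203 and 121 CPM. The ranges of these 4 genes did not meet. *Cd207* was at 132, 46.6 and 96.1 CPM in the Xcr1/Clec9a-type and at 0 in the Cd209a/Mgl2-type of every mouse. *Csf1r*, the receptor for the macrophage growth factor, and *Cd209d* were at 0 in the Xcr1/Clec9a-type, against 107, 150.1 and 87.8 and 417, 373 and 259.7 CPM, at least 22.5-fold and 67.1-fold lower with 3 UMIs as the floor of that type. *Il1rl1*, the receptor for interleukin 33, was likewise at 0 against 166, 134 and 76.8 CPM. *Cd209d* had a median of 1 UMI a cell in the Cd209a/Mgl2-type, and 1 cell of mouse 2 held 67, so the mouse 2 level rests mostly on that cell. Of 13 cDC1 markers tested 11 were higher (median log2 fold change 3.99), and of 6 cDC2 markers all 6 were lower (median -6.41), beside 4.37 and 4.43% of all genes tested and their median of -0.02. The cells were typed on genes of the same lists, and only 7 of the 14 cDC2 markers had a UMI in the Xcr1/Clec9a-type. Such genes had to differ, so nothing is read from these counts.

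**Figure D3:**
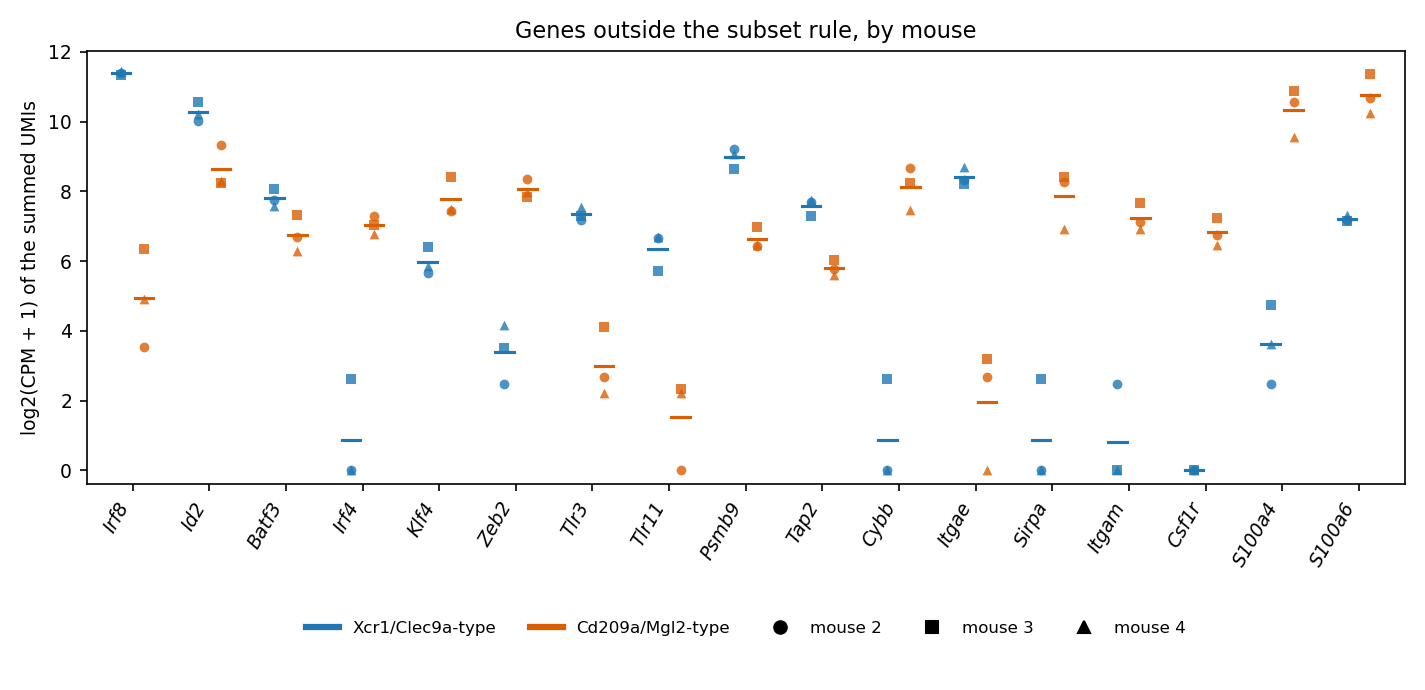
Levels of 17 genes as log2(CPM + 1) in the summed Xcr1/Clec9a-type and Cd209a/Mgl2-type DCs of each mouse (1 point per mouse, bar at the mean of the 3 logs). The transcription factor *Irf8* and the class I processing genes *Psmb9* and *Tap2* lie higher in the first type, and *Irf4*, *Cybb*, *Csf1r*, *S100a4* and *S100a6* in the second.

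Genes of further functional groups also passed the test between the types. The types were set on UMIs of the same cells, so here too genes that go with the typing genes had to differ. Adjusted p-values between the types, here and below, carry that limit. Of 14 genes of the machinery that makes and loads peptides for MHC class I, 5 were higher in the Xcr1/Clec9a-type (beside 4.37% of all genes tested; *Tap1*, *Tap2*, *Psmb9*, *Wdfy4* and *Rab43*) and 1 was lower, and the other 8 did not pass, with a median log2 fold change of 0.36 beside -0.02 over all genes tested. *Psmb9*, a subunit of the immunoproteasome, was at 590.1, 399 and 537 against 85.6, 126 and 87.8 CPM, a log2 fold change of 2.37 ± 0.25 (edgeR's quasi-likelihood test, Benjamini-Hochberg adjusted p = 0.000154). *Tap2*, a chain of the peptide transporter, was at 204, 155 and 215 against 53.5, 64.9 and 47.5 CPM (log2 fold change 1.81 ± 0.28, adjusted p = 0.00163). *Wdfy4*, needed for cross-presentation by cDC1, is also on the list of cDC1 markers, so its values are a description: it was at 1226, 958 and 1000.2 against 540.3, 446 and 194 CPM. Without mouse 2 the calls of *Tap1*, *Tap2*, *Wdfy4* and *Rab43* were lost (adjusted p = 0.104, 0.0832, 0.097 and 0.235) and without mouse 3 those of *Tap1*, *Wdfy4* and *Rab43* (adjusted p = 0.0892, 0.119 and 0.0726), and that of *Psmb9* was kept in both. The lower gene was *Cybb*, the catalytic subunit of the phagocyte NADPH oxidase, at 0, 5.18 and 0 against 407, 304 and 176 CPM (log2 fold change -6.98 ± 0.63, adjusted p = 5.68e-05).

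Of the class II genes tested between the types 4 passed, and *H2-Aa* and *Cd74* did not. *H2-Ab1* and *H2-Eb1*, as gate genes, were not tested. *H2-Aa* was at 6569, 5715 and 6679.5 CPM in the Xcr1/Clec9a-type and 6238, 6565 and 3888 CPM in the Cd209a/Mgl2-type, a log2 fold change of 0.23 ± 0.19 (adjusted p = 0.589), and *Cd74* differed by -0.09 ± 0.18 (adjusted p = 0.849). Their ranges overlapped. With the mixed droplets left out *H2-Aa* was at 6569, 6197 and 7404 against 6238, 6565 and 6890.0 CPM and *Cd74* at 18349, 16290.0 and 16850.4 against 20869, 20235 and 21552 CPM. Of 11 class II genes tested, 1 was higher and 3 lower, beside 4.37 and 4.43% of all genes. *H2-Ob* was higher in the Xcr1/Clec9a-type (log2 fold change 1.80 ± 0.37, adjusted p = 0.0103) and *H2-DMb2*, the lysosomal protease gene *Ctss* and the thiol reductase gene *Ifi30* were lower. *Ifi30*, which unfolds antigen for class II loading, was at 549, 518 and 311 against 1776, 1493 and 614 CPM (log2 fold change -1.44 ± 0.34, adjusted p = 0.0213). These 4 calls were lost without mouse 2 (adjusted p = 0.0832, 0.0876, 0.367 and 0.251) and without mouse 3 (adjusted p = 0.132, 0.113, 0.26 and 0.213).

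Among genes of the actin cytoskeleton and cell motility, a few passed the test between the types. Of 19 tested, beside 4.43% (lower) and 4.37% (higher) of all genes, 4 were lower in the Xcr1/Clec9a-type (*Capg*, *S100a4*, *S100a6* and *S100a10*) and 1 was higher (*Tmsb10*), with a median log2 fold change of 0.02. The calls of *S100a10* and *Tmsb10* were lost without mouse 2 (adjusted p = 0.249 and 0.175) and without mouse 3 (adjusted p = 0.298 and 0.224). *S100a4*, a calcium-binding protein of motile cells, was at 4.54, 25.9 and 11.3 CPM in the Xcr1/Clec9a-type and 1514, 1862 and 753 CPM in the Cd209a/Mgl2-type (log2 fold change -6.55 ± 0.47, adjusted p = 2.94e-05). With the mixed droplets left out it was at 4.54, 28.4 and 0 against 1514, 1862 and 1412 CPM. It had a UMI in 5 of 52 cells of the first type and 52 of 53 of the second. *S100a6*, a related protein, was at 145, 139.9 and 158 against 1648, 2654 and 1225 CPM (log2 fold change -3.59 ± 0.28, adjusted p = 3.07e-05), and *Capg*, which caps actin filaments, at 4.54, 5.18 and 5.65 against 193, 150.1 and 91.4 CPM (adjusted p = 0.00014). Of 6 costimulation and checkpoint genes tested, 2 were higher (*Cd86* and *Btla*) and 1 lower (*Cd83*), beside 4.37 and 4.43% of all genes. *Cd86*, a costimulatory ligand of CD28, was at 177, 109 and 203 against 58.8, 40.6 and 10.97 CPM (log2 fold change 2.24 ± 0.44, adjusted p = 0.00871), and its call was lost without mouse 2 (adjusted p = 0.097) and without mouse 3 (0.0759). *Cd83*, a stabiliser of surface class II, was at 45.4, 41.4 and 56.5 against 225, 292 and 51.2 CPM, with ranges that overlap (adjusted p = 0.0419), and its call was lost without mouse 2 (0.401), without mouse 3 (0.406) and with the mouse as a block (0.051). *Btla*, an inhibitory receptor, was higher in the Xcr1/Clec9a-type at 195, 161 and 164 against 37.4, 20.3 and 14.6 CPM (log2 fold change 2.91 ± 0.34, adjusted p = 0.000328). *Kit*, the stem cell factor receptor, was at 104, 114 and 79.1 against 0, 12.2 and 98.8 CPM (adjusted p = 0.401), and without the mixed droplets the second set was 0, 12.2 and 38.4 CPM (adjusted p = 0.000711).

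A number of immediate early and heat shock transcripts were higher in the Cd209a/Mgl2-type. Of 15 such genes tested, 9 were lower in the Xcr1/Clec9a-type (beside 4.43% of all genes tested; *Jun*, *Junb*, *Dusp1*, *Atf3*, *Zfp36*, *Nr4a1*, *Hspa1a*, *Hspa1b* and *Hsp90aa1*) and none was higher, with a median log2 fold change of -1.83 beside -0.02 over all genes tested. At an unadjusted p under 0.05, edgeR found 10 lower and 0 higher, beside 609 of all 3206 genes in both directions. DESeq2 called 9 lower and 0 higher, beside 115 lower and 109 higher of all 3206 genes. Without the mixed droplets 9 were lower too, beside 7.95% of all genes. *Hspa1a*, an inducible chaperone of the HSP70 family, was at 0, 0 and 33.9 CPM in the Xcr1/Clec9a-type and 1359, 1234 and 545 CPM in the Cd209a/Mgl2-type of mice 2, 3 and 4 (log2 fold change -6.53 ± 0.71, adjusted p = 0.000171). Without the mixed droplets the last value was 1043 CPM. *Atf3*, a stress-induced transcription factor, was at 4.54, 0 and 0 against 829, 576 and 245 CPM (log2 fold change -7.87 ± 0.71, adjusted p = 5.68e-05). *Zfp36*, which speeds the decay of cytokine mRNAs, was at 145, 98.4 and 96.1 against 1139.5, 1384 and 552 CPM (log2 fold change -3.11 ± 0.33, adjusted p = 0.000136). Without the mixed droplets the Cd209a/Mgl2-type of mouse 4 was at 506 CPM of *Atf3* and 1066 CPM of *Zfp36*. Each of these genes was higher in the Cd209a/Mgl2-type of every mouse, and the ranges were apart. The calls of *Junb*, *Nr4a1* and *Hsp90aa1* were lost without mouse 2 (adjusted p = 0.108, 0.198 and 0.185) and without mouse 3 (adjusted p = 0.207, 0.141 and 0.226), and the other 6 were kept.

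Not every gene of the list went along. *Hspa8*, the constitutive member of the HSP70 family, was at 1975, 1658 and 1368 against 1664, 1769 and 1262 CPM, a log2 fold change of 0.12 ± 0.20 (adjusted p = 0.815). *Fos*, the partner of *Jun* in AP-1, was at 218, 36.3 and 73.5 against 155, 559.9 and 87.8 CPM, a log2 fold change of -1.19 ± 0.66 (adjusted p = 0.366), with ranges that overlap. *Jun* was at 81.7, 10.4 and 39.6 against 770.3, 771 and 475 CPM (log2 fold change -3.84 ± 0.45, adjusted p = 0.000294).

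**Figure D4:**
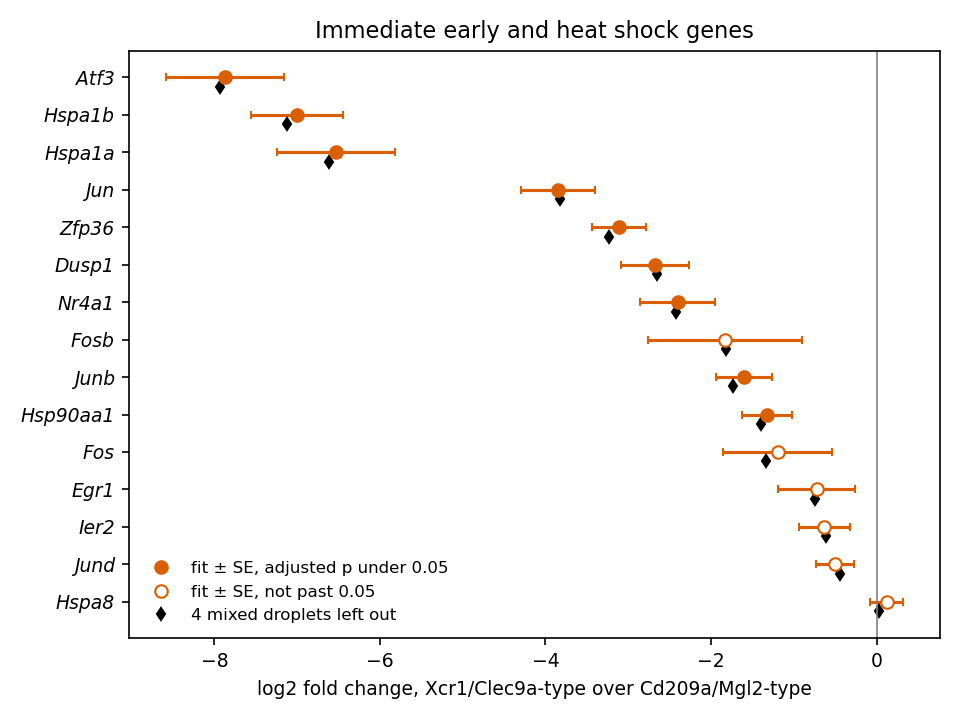
Log2 fold change of the Xcr1/Clec9a-type over the Cd209a/Mgl2-type for 15 immediate early and heat shock genes, with standard errors as bars (3 mice), filled where the adjusted p is under 0.05, and diamonds for the values without the 4 mixed droplets. *Atf3*, *Hspa1b* and *Hspa1a* lie lowest, at -7.87, -7.00 and -6.53, and *Hspa8* near 0.

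Cell by cell, the pattern split the Cd209a/Mgl2-type too. *Hspa1a* or *Hspa1b* had a UMI in 9 of 14, 14 of 22 and 8 of 17 cells of this type in mice 2, 3 and 4, and in 0 of 16, 1 of 19 and 1 of 17 cells of the Xcr1/Clec9a-type. The shares were 58.3 ± 9.76% and 3.72 ± 3.23% (SD, n = 3 mice), and 54.3% and 1.66% after thinning to 2000 UMIs. B cells were at 1.17 ± 0.628%, and at 0.589% after thinning. The part of free RNA in these shares was not tested. Of the 53 cells of the Cd209a/Mgl2-type, 22 had UMIs of both *Hspa1a* or *Hspa1b* and *Atf3*, and 17 had neither. The highest cell held 131 UMIs of the 2 chaperone genes. Cells with them had a median of 13352 UMIs and cells without them 9105.5. Among other sets, *Hspa1a* was at 1329, 1135 and 0 CPM in the macrophages, 6.95, 14.6 and 1.17 CPM in B cells and 17.6, 27.5 and 7.47 CPM in all other immune cells. Macrophages of mice 2 and 3 were near the Cd209a/Mgl2-type of the same mice, and those of mouse 4 had no UMI.

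Median mitochondrial shares of the Xcr1/Clec9a-type and Cd209a/Mgl2-type were 8.51 and 6.02%, and median UMIs 10327.5 and 10486. The 15 monocyte markers summed to 1584, 2705 and 2125 CPM in the Xcr1/Clec9a-type of mice 2, 3 and 4 and to 2541, 2073 and 4385 CPM in the Cd209a/Mgl2-type, with *Lyz2* the most abundant in both, and 6 of them were at 0 in the first type (*Fcgr1*, *F13a1*, *Fn1*, *Vcan*, *Ace* and *Csf1r*). The sums without the mixed droplets were 1584, 1990.2 and 981 CPM and 2541, 2073 and 1979.5 CPM. The lungs were dissociated before the libraries were made, and the part of cell handling, mitochondrial share, depth or monocytes in the heat shock difference was not tested.

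The promoters of *Hspa1a* and *Hspa1b* are shown because these 2 genes are among the 9 that were lower in the Xcr1/Clec9a-type. Both lie on the minus strand of chromosome 17, *Hspa1a* at chr17:34969190-34972156 and *Hspa1b* at chr17:34956436-34959238 (GRCm38, GENCODE M21). The windows, 250 bases before each start in RefSeq on GRCm38.p6, are chr17:34972157-34972406 and chr17:34959239-34959488, written 5′ to 3′ on the minus strand. Capitals mark GAANNTTC, 2 facing units of the heat shock element, 104 to 97 bases before the start, and CTGATTGG, 70 to 63 bases before it. The windows differ at 3 of 250 bases (98.8% identity). Of 16 genes of the list 12 had a window and 3 of the 12 held GAANNTTC (*Jun*, *Hspa1a* and *Hspa1b*), beside 6.69% of all 32851 windows, both strands searched. CTGATTGG was held by 2 of the 12 (*Hspa1a* and *Hspa1b*), beside 3.83% of all windows. The windows lie before the start, so their identity does not show how alike the transcripts are, and these were not compared. Reads could be split between the 2 genes or lost by counting, and their sum would then be firmer than either value. *Hspa1a* also overlaps a gene model on the plus strand.
Hspa1a: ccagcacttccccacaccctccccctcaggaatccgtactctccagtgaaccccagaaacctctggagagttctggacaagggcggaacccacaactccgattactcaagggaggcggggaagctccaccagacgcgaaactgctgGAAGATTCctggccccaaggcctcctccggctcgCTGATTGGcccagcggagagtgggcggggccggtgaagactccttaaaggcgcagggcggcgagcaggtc
Hspa1b: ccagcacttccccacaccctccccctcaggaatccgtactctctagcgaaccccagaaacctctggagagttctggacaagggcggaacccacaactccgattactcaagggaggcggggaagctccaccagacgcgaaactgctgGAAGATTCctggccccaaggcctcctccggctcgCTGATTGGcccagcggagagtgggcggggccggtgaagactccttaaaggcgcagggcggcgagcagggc

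Cells with transcripts of dividing cells were found in both types. *Mki67* or *Top2a* had a UMI in 2 of 16, 2 of 19 and 5 of 17 cells of the Xcr1/Clec9a-type and in 5 of 14, 6 of 22 and 6 of 17 cells of the Cd209a/Mgl2-type. The shares were 17.5 ± 10.4% and 32.8 ± 4.76% (SD, n = 3 mice; thinned 10.2 and 18.998%), and the exact intervals of the single mice overlapped widely. Of 11 cell cycle genes tested 0 passed the threshold by edgeR's quasi-likelihood test, beside 4.37% (higher) and 4.43% (lower) of all genes. At an unadjusted p under 0.05 there were 0, beside 609 of all 3206 genes, and DESeq2 called 0, beside 224 of 3206. With 11 genes, such counts do not show that the types were alike. *Top2a* was at 81.7, 5.18 and 158 against 187, 138 and 135 CPM (adjusted p = 0.477), and without mouse 4 it was lower in the Xcr1/Clec9a-type (adjusted p = 0.0267).

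**Figure D5:**
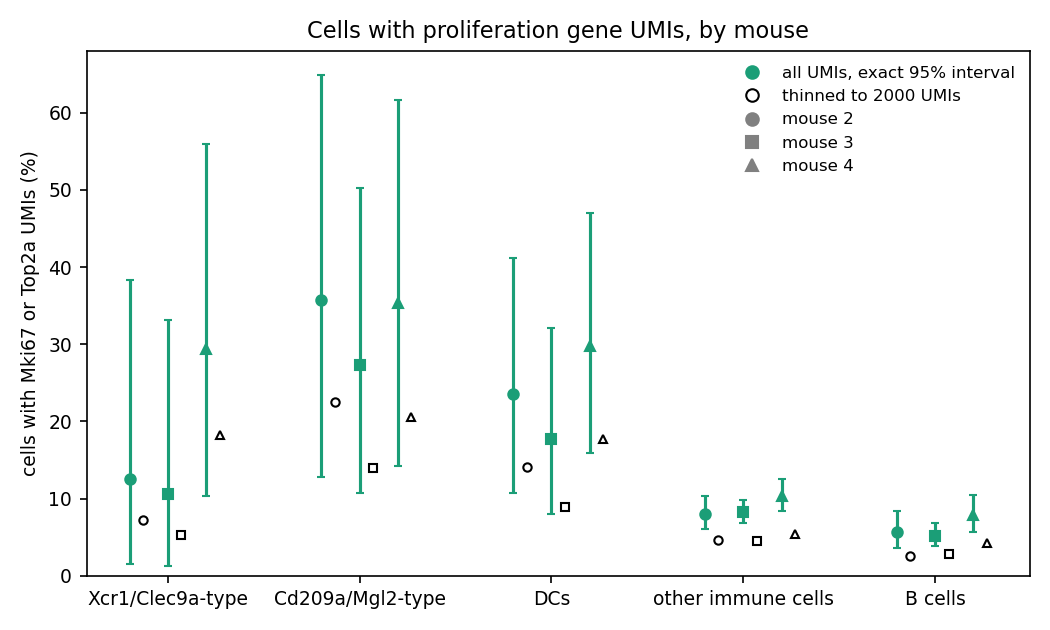
Percent of cells with a UMI of *Mki67* or *Top2a* in each mouse, for DCs, their 2 main subsets, other immune cells and B cells (points, with exact 95% binomial intervals as bars), beside the value after thinning to 2000 UMIs. DCs lie at 23.5, 17.8 and 29.7% and other immune cells at 8.01, 8.22 and 10.3%.

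The 5 cells of Ccr7/Fscn1-type held most of the *Ccl22* transcripts. They were too few for a test and are described by their UMIs. *Ccl22* had 755 UMIs in these 5 cells (13730 CPM) and 28 in the other 111 DCs (20.6 CPM), and *Ccl17* had 518 UMIs in 3 of the 5 (9420 CPM) and 839 in 36 of the others (618 CPM). *Il4i1*, an enzyme that degrades amino acids and restrains T cells, had 130 UMIs (2364 CPM against 26.5), and *Cd40*, the receptor for T cell help, had 33 in 3 cells (600 CPM against 11.05). *Tnfrsf9*, a costimulatory receptor, and *Nudt17* had 21 and 31 UMIs in 4 cells each and 0 and 1 in the others. *Ccl5*, a chemokine for T cells, had 40 UMIs in 4 of the 5 and 1 in the others. At 0 in all 5 cells were *Ccr2*, *Lyz2*, *Mgl2* and *Naaa*, which had UMIs in 84, 92, 53 and 100 of the other 111 DCs, and *Irf8* had 1 UMI. The 5 cells held 54987 UMIs together, and 3 of them had a UMI of *Ptprc*.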

How the data were processed

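Per the labels, each lung gave a Chromium 3′ v3 library of fresh cells. The authors ran Cell Ranger 3.0.2 (mm10 in the submitters' processing notes), and the deposited matrices hold UMI counts without normalization, for droplets called as cells. How reads of near-identical genes were counted is not given in the sources used here.

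Here, cells were filtered and gated, and UMI counts were summed per mouse and class (at least 5 cells a sum). The 13 gate genes, and the 7 subset genes between subsets, stayed in the library sizes and were left out of tests. Sums were compared with edgeR 4.0.16 (R 4.3.3; quasi-likelihood test, TMM, filterByExpr, p-values adjusted after Benjamini and Hochberg, called under 0.05), and DESeq2 1.42.0 served as the other tool. Levels are CPM of the sums, before TMM, and are not divided by gene length, so they are compared between cells and not between genes. Thinning took the expected share of cells with a UMI at 2000 UMIs. Scripts used Python 3.11.15 (scipy 1.17.1, pandas 2.3.3, scikit-learn 1.9.0). The scripts were first tested on simulated data.

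Members and gene lists were chosen with earlier results of these data known. The text names genes of 30 lists, the 12 highest and 8 lowest called folds of a comparison with at least 20 CPM, and gate genes. The DC sums of each pair of mice differed by more than sampling noise, with chi-square over degrees of freedom of 4.13, 8.55 and 5.01. The DCs shared no barcode between libraries. Classes of a mouse share that animal. Over genes, departures from the class means in paired sums correlated with r = 0.26, -0.06 and 0.38 (mice 2, 3 and 4; DCs and other immune cells), -0.0013, 0.07 and 0.16 (macrophages), 0.12, 0.18 and 0.44 (B cells) and 0.32, -0.14 and 0.31 (subsets), so the mouse was also fitted as a block. Doublets were scored by simulation, the highest 0.8% per 1000 cells being marked (2 DCs, in mouse 4), and kept. Promoters came from RefSeq windows (GRCm38.p6) matched by symbol.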

Additional observations from a re-analysis of the deposited data

Results flagged for a closer look

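The filter on mitochondrial UMIs left out cells that met the UMI conditions of the DC gate. Of 2002 cells left out, 14 met them (0.699%, exact 95% binomial interval 0.383 to 1.17%), 3 in mouse 2, 9 in mouse 3 and 2 in mouse 4. The shares of mice 2, 3 and 4 were 0.463% (0.0956 to 1.35%), 1.69% (0.773 to 3.18%) and 0.244% (0.0296 to 0.878%), with intervals that overlap and that cover counting error only. The 14 cells were outside every comparison above. All 14 were left out for mitochondrial UMIs, at 20.1% or more with a median of 29.4%, and had a median of 4104 UMIs. By the subset rule 7 were of Xcr1/Clec9a-type, 5 of Cd209a/Mgl2-type and 2 untyped. Groups of 3 mice are too small for a test of single libraries that stand apart.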

How the results depend on the processing

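Of 132 values of 11 main results under the alternatives, 110 stayed within 1.5 times the main count or within 1 SD of the main share, and 22 moved. Leaving out each mouse in turn gave 1066 to 2849 called genes for DCs against other immune cells, 133 to 334 against macrophages, 1772 to 3588 against B cells and 72 to 396 between the subsets. Without a filter on low counts, 827 genes were called against macrophages and 638 between subsets. At 500 genes and 10% mitochondrial UMIs, 161 were called against macrophages and 2449 against B cells, and the Xcr1/Clec9a-type and Ccr7/Fscn1-type were 40.8 and 6.83% of DCs (main 45.1 and 4.26%). With doublets removed, 450 were called between subsets, and with the mixed droplets left out, a choice made after the data had been seen, 438. With the gate applied per 10000 UMIs, 441 were called between subsets, and the Xcr1/Clec9a-type, Ccr7/Fscn1-type and untyped cells were 39.8, 5.74 and 9.99% of DCs (main of the last 5.32%). Thinning took the share of DCs with *Mki67* or *Top2a* from 23.7 to 13.5%. With the mouse as a block, 2338, 465, 3486 and 277 genes were called against other immune cells, macrophages and B cells and between subsets, and of the named genes *Cd74* against macrophages and *Cd83* between subsets (adjusted p = 0.051, edgeR) lost their calls. Between subsets, 3 log2 fold changes that did not pass the test changed sign: *Cd74* and *Fos* without mouse 3 (-0.20 to 0.024 and -2.47 to 0.30 over the mice left out) and *Hspa8* with doublets removed (-0.00099). Over 118 single-gene results, 1583 of 1697 values under the alternatives changed neither sign nor call, 100 lost and 11 gained a call. Outside the mice left out, the calls lost among the subset genes of the class I, class II, actin and costimulation groups were *Rab43* with DESeq2 (adjusted p = 0.055) and *Ctss* and *S100a10* without TMM (0.06 and 0.059), besides *Rab43*, *Ctss* and *S100a10* at 500 genes and 10% mitochondrial UMIs (0.185, 0.15 and 0.072) and *S100a10* with 3 UMIs of the 5 DC genes required (0.056), and *Cd83* without TMM (0.06), at 500 genes and 10% mitochondrial UMIs (0.0997) and with the subset rule at 3 UMIs (0.051). The cause of these moves was not tested. The comparison of the Ccr7/Fscn1-type was not run, because 1 or 2 cells a mouse are under the 5 needed. Depth also limits the macrophages, with 142984 UMIs in 20 cells.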

Other observations

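Other groups of genes in the DCs are given as values, from the same gate-drawn contrast with other immune cells, in which 14.2% of all genes were higher and 14% lower (19.2 and 22.8% without the mixed droplets). Of 19 pattern recognition genes tested 6 were higher, among them *Tlr3* and *Tlr11*, a sensor of a parasite profilin, and 6 lower, among them *Tlr7*, a sensor of single-stranded RNA, and *Cd14*. *Tlr11* was at 51.01, 21.7 and 40.1 CPM against 0.854, 0 and 0.213 CPM, and *Tlr7* at 0 in the DCs of every mouse against 11.7, 6.90 and 9.82 CPM. Of 20 genes of the actin cytoskeleton and motility 12 were higher, among them *Vim*, an intermediate filament, at 2808, 2728 and 1824 against 851, 871 and 910.0 CPM, and 2 lower. Of 12 interferon response genes 4 were higher and 3 lower (6 and 2 without the mixed droplets). Of 12 costimulation and checkpoint genes 5 were higher, among them *Cd83*, a stabiliser of surface class II, at 128, 234 and 69.7 against 28.8, 38.3 and 34.2 CPM, and 2 lower (7 and 3 without the mixed droplets), and *Cd83* did not pass without mouse 2. Of 15 monocyte markers 3 were higher and 3 lower, and without the mixed droplets 3 were higher and 6 lower of 14, and *Ly6c2*, a surface marker of classical monocytes, was at 11.6, 9.84 and 6.33 against 99.1, 64.1 and 55.7 CPM.

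*Timd4*, a receptor for dying cells, was at 46.4, 9.84 and 8.45 CPM in the DCs of mice 2, 3 and 4 and at 0, 0.141 and 0 CPM in other immune cells. In mouse 2 the Cd209a/Mgl2-type carried most of it, at 102 CPM, and in mice 3 and 4 that type was at 4.06 and 0 CPM. *Tcf4*, a factor of plasmacytoid DCs, was higher in the Cd209a/Mgl2-type, at 310.3, 219 and 299.9 CPM against 54.5, 109 and 45.2 CPM in the Xcr1/Clec9a-type, while *Siglech* had no UMI in the Cd209a/Mgl2-type. As a lineage gene *Tcf4* is given as a description, and it did not pass the threshold without mouse 2.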
